A study of Rattus norvegicus with 2 samples.

Results

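Serpins are a family of protease inhibitors, and 7 of their genes were examined in the esophagus of rats given the histone deacetylase inhibitor OSU-HDAC42 or vehicle: Serpina12, Serpina1, Serpinb2, Serpinb5, Serpine2, Serpinf1 and Serping1. They were chosen with earlier results of these arrays in view, above all the high value of Serpina12, so every value below is a description. Members were the probe sets annotated by the platform to exactly 1 gene with one of these symbols. This gave 6 probe sets for 6 genes, 1 probe set each, among 31042 non-control probe sets for 14217 genes. Serpinb5, which encodes maspin, had no probe set under the rule and was not analysed here. The wider family, every symbol that begins with Serpin, held 33 genes on 38 probe sets.

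The animals were male Sprague-Dawley rats, an outbred laboratory strain, 5 to 6 weeks of age at purchase, with no transgene or deletion named. OSU-HDAC42 rats received 7 gavage doses of 50 mg/kg body weight, 350 mg/kg in total, and control rats received vehicle on the same schedule. The esophagus was collected on day 15, at 24 hours from the final dose. Each of the 2 groups had 1 Affymetrix array of total RNA, the labels do not say whether it held 1 rat or a pool, so the spread between rats is unknown for every value. The comparison asks how the inhibitor alters gene expression in esophageal tissue, as the series title states.

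Most serpins act as suicide substrates. A protease cleaves an exposed loop of the serpin, the serpin changes shape, and the protease is locked into a covalent complex that cells then clear through receptors of the low-density lipoprotein receptor family. Some members of the family, such as pigment epithelium-derived factor, maspin and the collagen chaperone encoded by Serpinh1, no longer inhibit proteases and have other roles. In a squamous lining such as that of the esophagus, serpins of clade B stay largely inside keratinocytes, whereas those of clades A, E, F and G are secreted.

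In the OSU-HDAC42 sample, Serpina12 (vaspin) was 4.48-fold higher than in the vehicle sample and Serpinf1 (pigment epithelium-derived factor) 1.75-fold higher. Serpina1 and Serpine2 were lower, at 0.737 and 0.770 of the vehicle intensity, and Serpinb2 and Serping1 were close to it, at 1.04 and 1.07. Of the 6 measured members, Serpina12 was at or past 2-fold higher and none 2-fold lower. Over all 9560 genes whose higher array reached the expression floor, 1.88% were higher by 2-fold or more and 3.17% lower by as much. The floor is an intensity of 49.1, the median of the probe sets' mean over both arrays. Nothing is read from the members' count, because the members were chosen on this contrast.

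The sequence upstream of 3 members is shown. Serpina12 and Serpinf1 had the largest differences. Serpina1 is given for comparison, since it lies in the same gene cluster as Serpina12. The Serpina1 difference of -0.44 was within the wide scatter of genes as dim, and its intensity lay near the floor. Each run is the 250 bases before the gene's start in RefSeq's annotation of GRCr8, 5′ to 3′ on the gene's strand. Capitals mark a GC box (GGGCGG, read on either strand, so CCGCCC counts) or a CCAAT box (CCAAT or ATTGG).
Serpina12: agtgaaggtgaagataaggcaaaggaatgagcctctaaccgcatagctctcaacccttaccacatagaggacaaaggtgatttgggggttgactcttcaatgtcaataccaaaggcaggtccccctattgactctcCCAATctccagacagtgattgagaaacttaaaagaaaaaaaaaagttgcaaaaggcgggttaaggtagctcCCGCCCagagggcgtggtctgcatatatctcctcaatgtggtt
Serpina1: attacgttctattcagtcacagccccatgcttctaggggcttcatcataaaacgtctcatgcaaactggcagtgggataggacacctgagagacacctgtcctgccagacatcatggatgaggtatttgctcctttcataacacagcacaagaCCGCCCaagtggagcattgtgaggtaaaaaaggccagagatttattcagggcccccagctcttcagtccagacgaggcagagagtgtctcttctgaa
Serpinf1: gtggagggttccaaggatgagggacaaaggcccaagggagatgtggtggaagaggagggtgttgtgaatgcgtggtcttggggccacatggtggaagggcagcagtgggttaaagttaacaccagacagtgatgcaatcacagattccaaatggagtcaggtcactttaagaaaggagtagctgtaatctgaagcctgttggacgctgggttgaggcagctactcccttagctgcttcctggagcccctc
These stretches are chr6:128732050-128732299, chr6:128653126-128653375 and chr10:60760899-60761148, all on the minus strand.

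The Serpina12 stretch held 1 GC box from base -43 to -38, counted from the start site, and 1 CCAAT box from -114 to -110. The Serpina1 stretch held 1 GC box from -97 to -92, and the Serpinf1 stretch held no match to either. Of 33469 RefSeq stretches of the same length, 30.5% held a GC box and 34.0% a CCAAT box. Promoter sequence was found for 6 of the 7 members. That of Serpine2 held 6 GC boxes, among them 2 pairs with overlapping or adjacent letters, and 76.8% of its bases were G or C, against a median of 51.2% over all stretches. None of the 6 held the E-box CACGTG or the TATA box TATAAA, which 5.59% and 12.9% of all stretches held. A match is a description of letters in this window, and the arrays measured no binding or histone mark there.

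Serpina12 encodes vaspin, a secreted serpin first described in adipose tissue that inhibits the epidermal protease kallikrein 7. Its intensity was 1409 with OSU-HDAC42 and 315 with vehicle, a difference of 2.16 on the log2 scale. It stood 9th from the top among the 9560 genes above the floor. Because the scatter of differences narrows with brightness, Serpina12 was also set beside the 500 genes nearest to it in mean intensity. Their differences had an SD of 0.38, and 0 of the 500 reached its value. Serpina12 was chosen for its high value on these same arrays, so its rank and this count restate that choice. The SD between differences of 2 probe sets for 1 gene was 0.41 (3643 pairs, 2126 genes). It covers any disagreement between probe sets of a gene and does not measure the spread between rats. Serpina12 has 1 probe set, so no second probe set bears on its value.

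**Figure D1:**
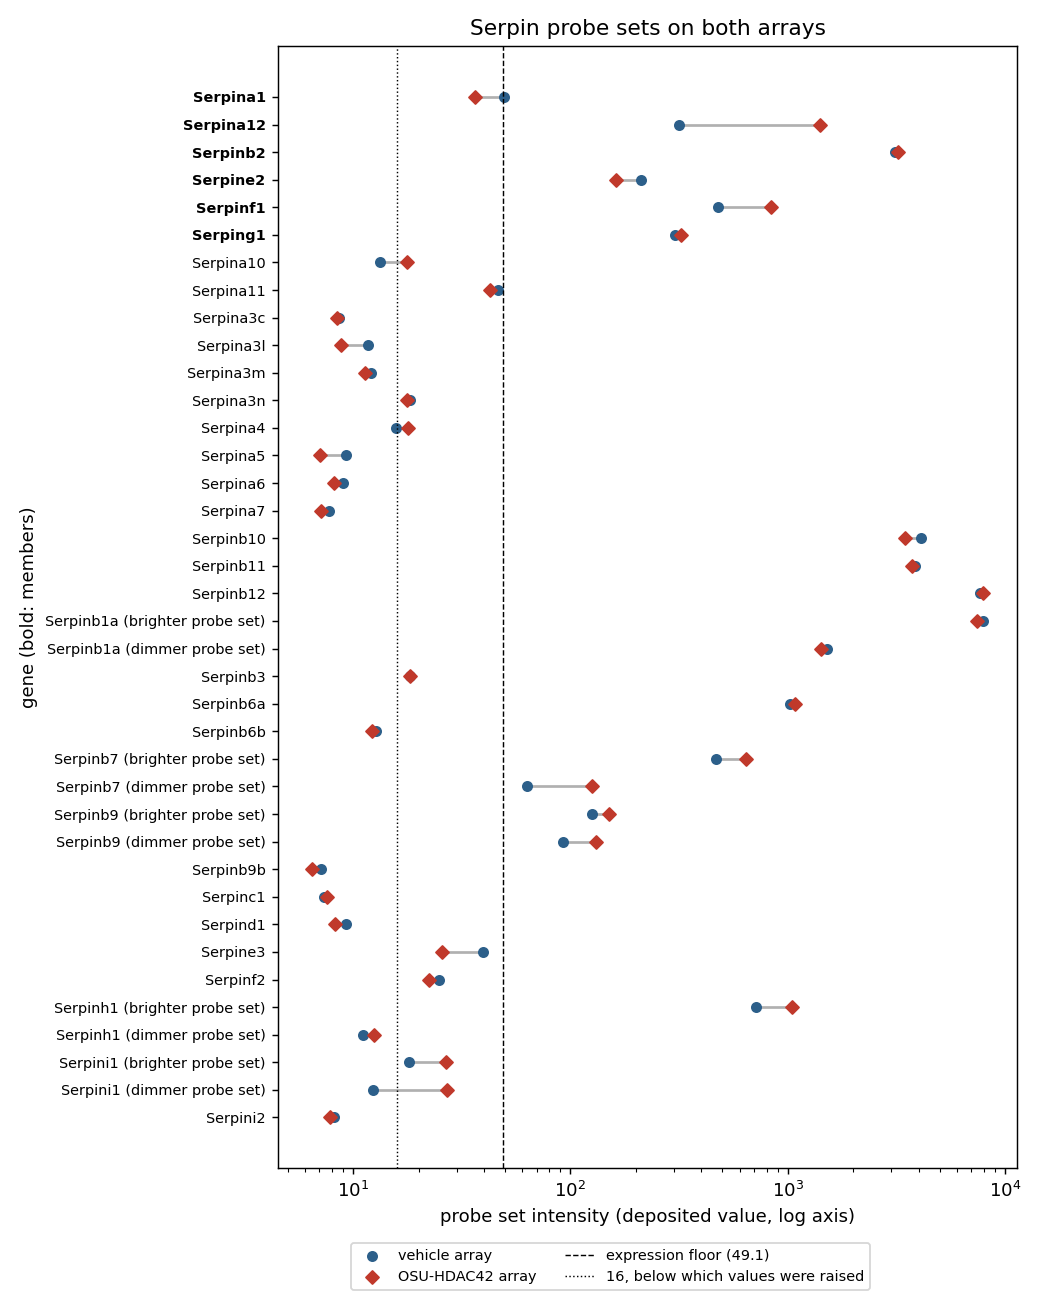
Deposited intensity (log axis) of the 38 probe sets of 33 serpin genes on the vehicle array (circles) and the OSU-HDAC42 array (diamonds), 1 array per group with no error bars, with the members in bold. The gap of Serpina12, from 315 to 1409, is the widest among probe sets above the floor of 49.1 (dashed line), and most serpins of clade A lie to the left of it.

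Vaspin is known as a product of fat cells, and markers of fat cells were low in both samples. Of 10 adipocyte markers, 9 were measured and 2 reached the floor, namely Fabp4, a fatty acid carrier also found in endothelium and macrophages, at 61.2 against 99.4, and the lipase Lipe at 64.8 against 69.8. The defining markers Adipoq, Plin1, Lep and Cidec were each under an intensity of 16 on both arrays, too dim for a difference. The summed intensity of the 9 markers was 222 in the OSU-HDAC42 sample and 269 in the vehicle sample. In whole tissue, fewer cells of a type and less RNA per cell cannot be told apart, here and for all results that follow. Markers of the upper keratinocyte layers were bright in both samples, as the labelled tissue implies: all 7 measured of 8 listed were above the floor, 1 was higher and 6 lower, and their summed intensity was 50133 against 54949. Whether they bear on the level of Serpina12 was not tested.

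In GRCr8, Serpina12 lies within a run of serpins of clade A, and its 5 nearest protein-coding neighbours on each side are all serpins. Of these 10 neighbours, 5 were measured. Serpina1, 3 genes away, is described next. Serpina11, 2 genes away, stood at 42.5 against 46.6, and Serpina4 (kallistatin), directly adjacent on the other side, at 17.9 against 15.8. Serpina5 (protein C inhibitor) and Serpina3m were under 16 on both arrays. Across the 11 measured clade A genes of this region, 2 reached the floor, Serpina12 and Serpina1, and 5 were under 16 on both arrays.

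Serpina1 encodes alpha-1-antitrypsin, the main plasma inhibitor of neutrophil elastase, made chiefly by the liver. Its intensity was 36.4 with OSU-HDAC42 and 49.3 with vehicle, a log2 difference of -0.44. The higher value lies just above the floor of 49.1, and with the floor taken from arithmetic means Serpina1 falls below it. Among the 500 genes of like brightness the SD was 0.72, and 176 of them were at least as low, so its difference is well within the scatter at that intensity. Of 11 hepatocyte markers, 10 were measured and none reached the floor. Albumin (Alb) was under 16 on both arrays, and the summed intensity of the hepatocyte markers was 155 in the OSU-HDAC42 sample and 134 in the vehicle sample.

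Serpinb2 encodes plasminogen activator inhibitor type 2, which blocks urokinase and is abundant in differentiating keratinocytes. Its intensity was 3230 with OSU-HDAC42 and 3111 with vehicle, a log2 difference of 0.05. Genes of like brightness had an SD of 0.24, and 195 of the 500 were at least as high. The other measured clade B genes were mostly bright as well. Of 11 clade B genes, 8 reached the floor, with 5 higher and 3 lower, none by 2-fold, with a median difference of 0.05. Over all genes above the floor the median was -0.03.

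Among these clade B genes, Serpinb7 (megsin), known from mesangial cells and the upper epidermis, had the largest difference. Its brighter probe set stood at 641 against 468, a log2 difference of 0.45, and its dimmer one at 126 against 62.9, a difference of 1.00 (2.00-fold). The gene was not counted as 2-fold, since the brightest probe set represents each gene. Serpinb9, an inhibitor of granzyme B, was higher on both its probe sets, by 0.26 and 0.52. Serpinb10 was lower, at 3470 against 4125, a difference of -0.25. Only 37 of the 500 genes of like brightness were at least as low as Serpinb10.

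The remaining clade B genes above the floor differed little. Serpinb1a, an inhibitor of neutrophil proteases, differed by -0.10 and -0.09 on its 2 probe sets. Serpinb11 differed by -0.05, Serpinb12 by 0.05 and Serpinb6a by 0.08. Serpinb2 lies directly between Serpinb7 and Serpinb10 in GRCr8, so adjacent genes differed by 0.45, 0.05 and -0.25. The serpin next to the unmeasured Serpinb5 is Serpinb12, at 7924 against 7629.

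Serpine2 encodes protease nexin 1, a cell-surface inhibitor of thrombin, urokinase and tissue plasminogen activator. Its intensity was 162 with OSU-HDAC42 and 211 with vehicle, a log2 difference of -0.38. The SD of genes of like brightness was 0.51, and 132 of the 500 were at least as low. Its relative Serpine3 was below the floor at 25.7 against 39.6. Of its target proteases, tissue plasminogen activator (Plat) stood at 127 against 131, and urokinase (Plau) was below the floor at 25.1 against 34.3.

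**Figure D2:**
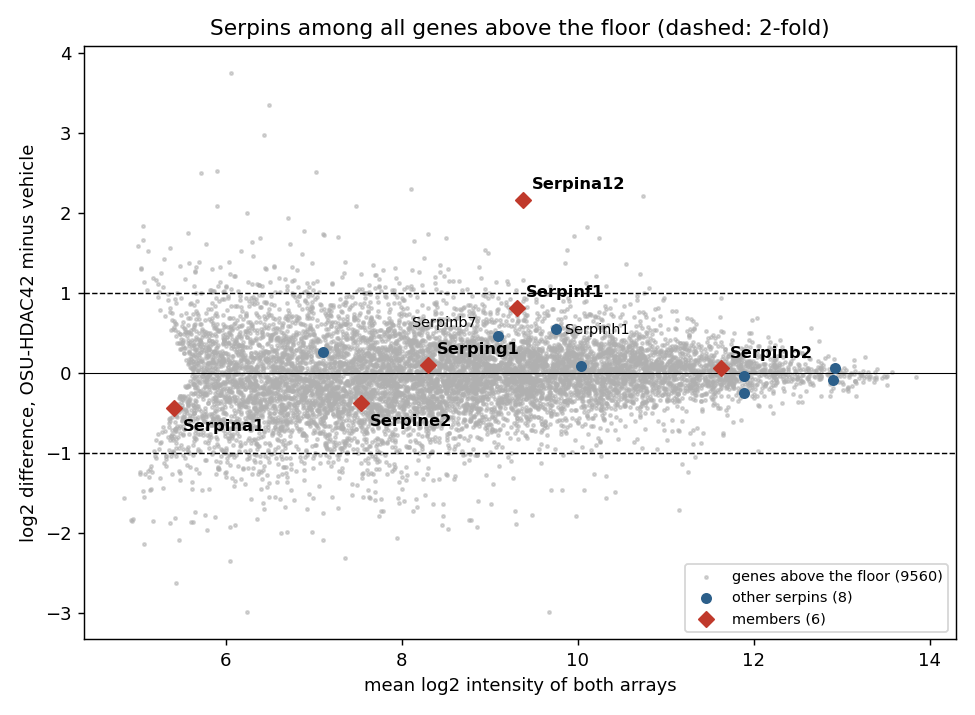
Log2 difference (OSU-HDAC42 minus vehicle) against mean log2 intensity for the 9560 genes above the floor (grey), with 6 members (diamonds) and 8 other serpins (circles), 1 array per group. Serpina12, chosen for its high value, lies at 2.16, outside the cloud of genes of its brightness. Serpinf1 at 0.81 lies near the upper edge of the cloud, and the other members within it.

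Serpinf1 encodes pigment epithelium-derived factor, a secreted serpin without inhibitory activity that restrains vessel growth and supports neurons, and that fibroblasts produce. Its intensity was 837 with OSU-HDAC42 and 478 with vehicle, a log2 difference of 0.81. It stood 346th from the top of 9560 genes, and 17 of 500 genes of like brightness were at least as high (SD 0.40). It did not reach 2-fold. At a threshold of 1.5-fold it was counted with Serpina12, against 7.58% of all genes above the floor that were higher by that much. Pnpla2, a lipase proposed as its receptor, stood at 220.5 against 161 and differed by 0.45. Serpinf2 (alpha-2-antiplasmin), its direct neighbour in GRCr8, was below the floor at 22.5 against 24.9.

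Serpinh1 encodes a collagen chaperone of the endoplasmic reticulum and is another serpin without inhibitory activity. Its brighter probe set stood at 1044 against 712, a difference of 0.55, while its other probe set was under 16 on both arrays. The name of the brighter probe set carries the suffix that Affymetrix gives to probes shared between transcripts. Most markers of fibroblasts and smooth muscle were higher beside Serpinf1 and Serpinh1. All 9 fibroblast markers were above the floor, 8 of them higher, with a median of 0.42 and a summed intensity of 21442 against 17454. With the probe sets of a gene above the floor averaged, that median was 0.29. The largest differences among them were Thy1 at 1.09, which was past 2-fold, Pdgfra at 0.94, Dcn at 0.76 and Dpt at -0.56. The other probe set of Dpt differed by 0.44, so its probe sets disagree in sign. All 8 smooth muscle markers were higher, with a median of 0.62 and a summed intensity of 11830 against 7345. Their part in the values of Serpinf1 and Serpinh1 was not tested.

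Serping1 encodes the inhibitor of the first complement component, which also controls plasma kallikrein. Its intensity was 324 with OSU-HDAC42 and 303 with vehicle, a log2 difference of 0.10, with an SD of 0.47 among genes of like brightness. Its target proteases also differed little, C1r at 487 against 443 (0.14) and C1s at 251 against 239 (0.07). Of 18 genes of the classical and lectin complement list, 12 were measured and 9 were above the floor, 6 higher and 3 lower, with a median of 0.10. The largest differences were Masp1, a lectin pathway protease, at 19.6 against 57.7 (-1.56), the membrane regulator Cd55 at 31.9 against 61.3 (-0.94) and the recognition chains C1qa and C1qc at 0.48 each. The other probe sets of Masp1, both below the floor, differed by 0.09 and 0.91, and that of Cd55, also below the floor, by 0.57, so the probe sets of both genes disagree in sign. Macrophages, a source of the C1q chains, had 9 of 9 markers above the floor, 7 higher, 1 lower and 1 equal. Their summed intensity was 1624 against 1203. This marker list includes C1qa, C1qb and C1qc, all of them among the higher ones, so it is not separate from the C1q values.

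For each member the 3 genes nearest in the plane of both log2 intensities were found, a likeness over 2 arrays that says only that level and difference were alike. Nearest to Serpina12 were Mmd, Synpo2 and Plekhb2, at distances of 0.71, 0.73 and 0.76. All 3 had smaller differences, from 1.16 to 1.54, and another probe set of Synpo2 differed by -0.44. The other members had near twins: Serpinf1 lay 0.02 from Klhl23, Serpinb2 0.02 from Cul3, Serpine2 0.01 from Brd8, Serping1 0.02 from Samd4b and Serpina1 0.02 from Ogg1. Genes with symbols beginning with LOC or RGD were left out of this search. Among the rest, none lay closer than 0.71 to Serpina12, whereas each other member had one at a distance of 0.01 to 0.02. The distance uses the same 2 values for which Serpina12 was chosen, so its lack of near genes restates that choice.

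Of the whole serpin family, 14 of 33 genes reached the floor, with 9 higher and 5 lower, and Serpina12 was the 1 gene past 2-fold. The family median was 0.07, beside -0.03 for all genes above the floor, of which 46.7% were higher. The other 19 genes lay below the floor, 11 of them under 16 on both arrays. These included the plasma serpins Serpinc1 (antithrombin) and Serpind1 (heparin cofactor II). Of the genes below the floor, Serpini1 (neuroserpin) stood at 26.9 against 18.2.

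The lists around the targets of serpins hold proteases together with receptors, cofactors and some serpins, so their medians do not describe proteases alone. These medians stayed near 0 apart from that of the leukocyte protease list. Of 25 kallikreins and epidermal serine proteases, 10 were measured and 7 were above the floor, 4 higher and 3 lower, with a median of 0.03 and none past 2-fold. Klk6 differed by 0.64, St14 (matriptase) by -0.46 (223 against 306), Tmprss11d by 0.26 and Prss8 (prostasin) by -0.20. Klk7, the known target of vaspin, had no probe set annotated to it alone and was not analysed here. The plasminogen activation list had 6 genes above the floor of 12 measured, 4 higher and 2 lower, with a median of 0.02. Its largest difference besides Serpine2 was S100a10, a plasminogen receptor subunit, at 0.35.

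The thrombin and coagulation list had 8 genes above the floor of 21 measured, 4 higher and 4 lower, with a median of -0.01 that turned to 0.02 with each array centred. Of its members, 2 were at least 2-fold higher, beside 1.88% of all genes above the floor. F2r, the thrombin receptor, stood at 709 against 342 (1.05) and F13a1, the fibrin cross-linking factor also made by macrophages, at 151 against 46.7 (1.69). F13a1 reached the floor of 49.1 only on the OSU-HDAC42 array, and its other probe set, below the floor, differed by 0.07. Procr differed by -0.53 and F8 by -0.22. Of the lysosomal cathepsins, 9 of 11 were above the floor, 6 higher and 3 lower, with a median of 0.09. Ctsl was the highest at 0.60, and 0.72 on its other probe set, followed by Ctsf at 0.27, Ctsz at -0.26 and Ctsc at -0.20.

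**Figure D3:**
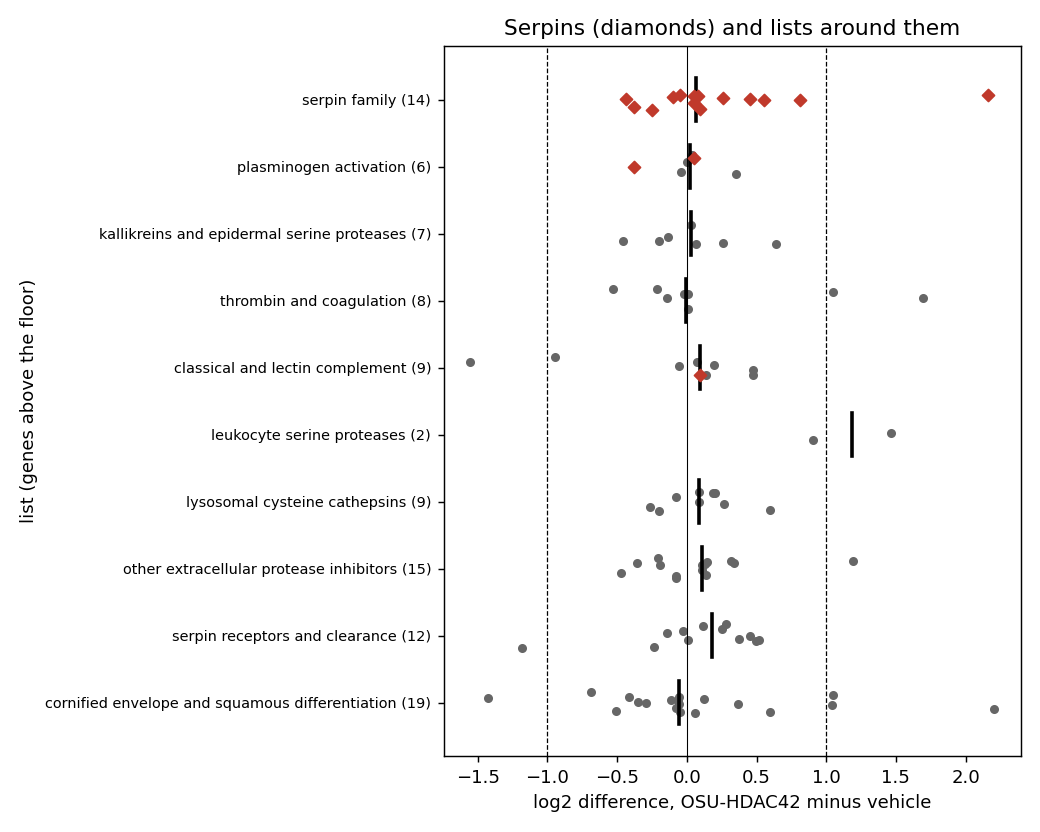
Log2 difference (OSU-HDAC42 minus vehicle) of each gene above the floor in the serpin family and in lists of proteases, inhibitors, receptors and squamous genes, with serpins as diamonds, a bar at each list's median and the number of genes in brackets. Medians lie between -0.06 and 0.18 except for the leukocyte protease list of 2 genes, and Serpina12 at 2.16 and Sprr1b at 2.21 lie farthest to the right.

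Receptors that clear or bind serpins were higher in 8 of 12 cases above the floor, with a median of 0.18. Lrp1, the main clearance receptor for complexes of serpins and proteases, stood at 970.5 against 689 (0.49), and Lrp8, at 52.4 against 36.6, differed by 0.52. Lrp2 (megalin) was lower, at 40.0 against 90.7 (-1.18). When the differences of all probe sets of a gene above the floor were averaged, 6 of the 12 were higher and 6 lower. Of protease inhibitors outside the family, 15 of 17 measured were above the floor, 9 higher and 6 lower, with a median of 0.11. Reck, a membrane inhibitor of metalloproteinases, was at least 2-fold higher at 370 against 162 (1.19), and Spint2, Cst6 and Cst3 differed by -0.47, -0.35 and 0.34.

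Genes of the cornified envelope and squamous differentiation were set beside Serpina12 as products of upper keratinocyte layers. Of 20 measured, 19 reached the floor, with 7 higher and 12 lower, with a median of -0.06. Of these, 3 were at least 2-fold higher, beside 1.88% of all genes above the floor. They were the envelope precursors Sprr1b at 2.21 and Sprr2d at 1.05 (613 against 297) and the keratin Krt10 at 1.04. The calgranulin S100a8 was 2-fold lower or more, at 54.0 against 145 (-1.43), beside 3.17% of all genes above the floor. The relation of these genes to Serpina12 was not tested.

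**Figure D4:**
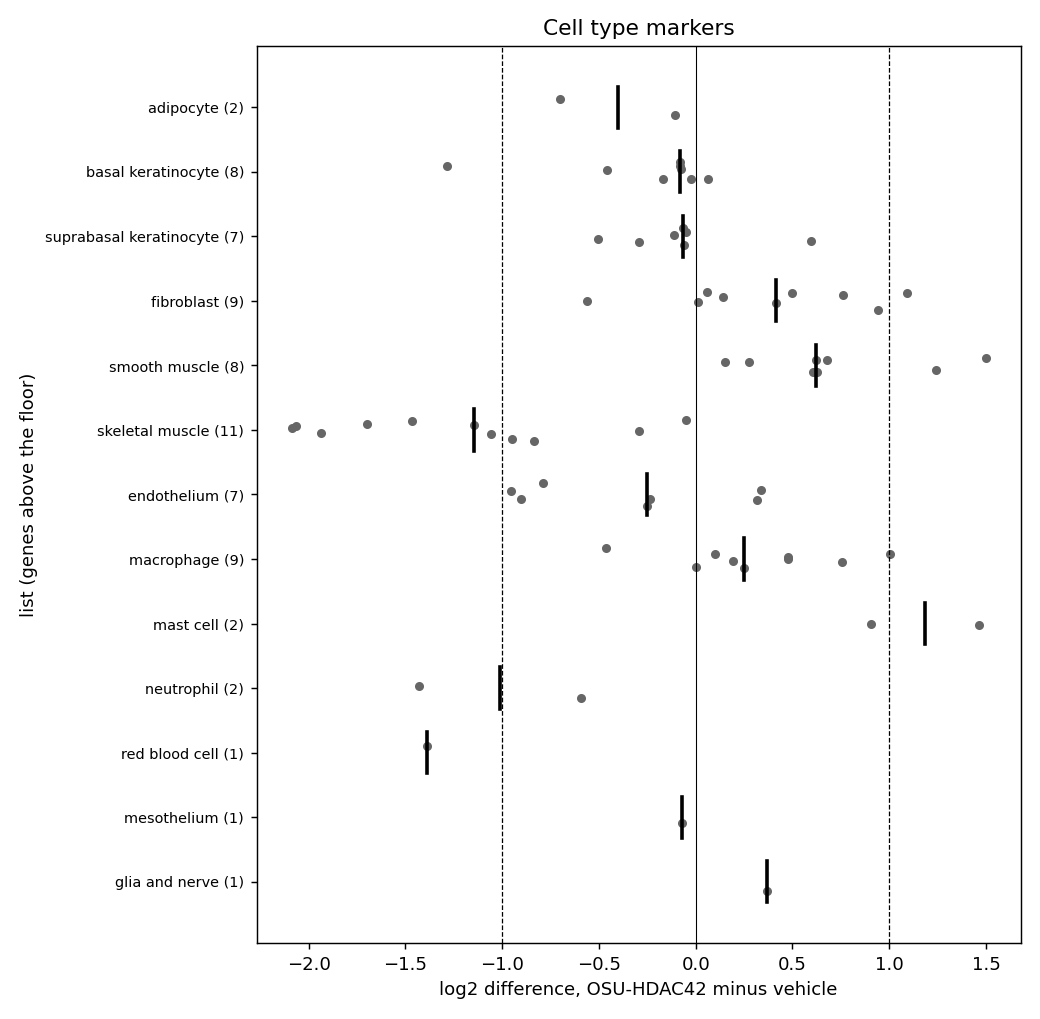
Log2 difference (OSU-HDAC42 minus vehicle) of each marker gene above the floor for 13 cell types, with a bar at each median and the number of genes in brackets. Smooth muscle (0.62) and fibroblast (0.42) medians lie to the right of 0, skeletal muscle (-1.14) and endothelium (-0.25) to the left. Both keratinocyte lists lie close to 0. Hepatocyte markers are not drawn because none reached the floor.

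Across the series, intensities had a median of 48.4 with OSU-HDAC42 and 49.1 with vehicle. Skeletal muscle markers were lower in 11 of 11 cases, and their summed intensity was 9761 against 18189. The 3' over 5' intensity ratio, a check of RNA integrity, was 6.29 against 7.76 for beta-actin and 2.09 against 2.32 for GAPDH. Signal was thus brighter at the 3' end of both transcripts on both arrays, and these ratios do not show intact RNA. The part of muscle content and RNA integrity in the members' values was not tested.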

How the data were processed

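The authors deposited linear intensities, with a value for each probe set on each array (range 4.48 to 14947 without controls), a unit inferred from their range. GCOS and RMA appear per the submitters' processing notes, and how the arrays were scaled to each other is not given in the sources used here. Values below 16 were set to 16 before taking log2, in Python 3.11.15 with pandas 2.3.3, and differences are OSU-HDAC42 minus vehicle. Of 31042 non-control probe sets, 20826 had 1 gene symbol, 436 several and 9780 none, and only the first were used. A gene is represented by its brightest probe set. With 1 array per group there was no test, no p-value and no standard error, and the number of arrays limits the precision. The steps were tested on simulated data. Alternatives covered raised values, scaling, probe set choice, floor and threshold.

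The members and all lists were chosen with earlier results of these data known. All members and all serpins above the floor are named, with up to 4 genes per other list, those with the largest differences above the floor, and the known targets or receptors Klk7, Plau, Plat, C1r, C1s and Pnpla2. The text departs from this rule: most cell type marker lists are given by counts, and other markers, genome neighbours and genes below the floor that are named were chosen after values were seen. RefSeq sequences and gene order come from GRCr8, to which no probe was mapped.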

Additional observations from a re-analysis of the deposited data

How the results depend on the processing

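Of the 6 alternatives run on each member's difference, only the changes of scaling could move it. No member intensity was under 32, the highest value to which dim values were raised, and each member had 1 probe set. Every difference kept its sign and moved by less than 0.41, the SD between probe sets of a gene. Serpina12 ran from 2.14 to 2.19, Serpinf1 from 0.79 to 0.83, Serpina1 from -0.44 to -0.42 and Serpine2 from -0.38 to -0.36. At 1.5-fold, by construction, 2 member genes and 2 serpin family genes were higher. The floor from arithmetic means was chosen after seeing the data and changed no count of serpins past 2-fold. The leukocyte protease list had a median of 0.011 without a floor, where 8 more genes entered, and 78 of 79 list medians moved by less than 0.41. With the floor at the 75th percentile the kallikrein and receptor lists turned to -0.13 and -0.03, and the thrombin list turned to 0.02 with each array centred, to 0.0075 with that floor and to 0.0023 under quantile normalization. Low intensity leaves 11 serpins unmeasurable. No paired analysis was possible because there was 1 array on each side.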

Other observations

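Proteases of mast cells were higher in the OSU-HDAC42 sample, although from low intensities. Cpa3, mast cell carboxypeptidase, stood at 131 against 47.5 and the chymase Cma1 at 55.6 against 29.7, which gave the leukocyte protease list a median of 1.18 over its 2 genes above the floor. The tryptases Tpsab1 and Tpsb2 were below the floor, at 24.5 against 14.3 and 25.6 against 15.1. Of 7 mast cell markers, 2 reached the floor. They were the same Cpa3 and Cma1, so this marker list is not separate from the protease values. Both reached the floor of 49.1 only on the OSU-HDAC42 array, so that filter fixed their direction. Below the floor, Ms4a2 stood at 32.6 against 16.2 and Hdc at 16.7 against 18.5. Kit and Fcer1a were under 16 on both arrays. The granzymes Gzma, Gzmb and Gzmk were under 16 on both arrays.

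Serping1, itself nearly equal between the samples, lies in GRCr8 beside genes that differed in both directions. Of its 10 nearest protein-coding neighbours, all were measured, 8 reached the floor and 2 of these, Ypel4 and Smtnl1, were past 2-fold. Over all genes above the floor, 1.88% were higher by that much and 3.17% lower. Among the neighbours of the other members none was past 2-fold, apart from Serpina12 itself as a neighbour of Serpina1. Its direct neighbour Ypel4 stood at 125 against 22.1 (2.50), Clp1 on the same side at 314 against 162 (0.95) and Smtnl1, 2 genes away on the other side, at 73.4 against 365 (-2.31). Of the others above the floor, Ube2l6 differed by -0.76 and Med19 by 0.45, and Tmx2, Zdhhc5 and Timm10 by -0.02, -0.04 and -0.08. These neighbours were singled out after their values were seen, and Ypel4 reached the floor of 49.1 only on the OSU-HDAC42 array. The part of muscle content in their values was not tested.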
